A study of Mus musculus with 32 samples.

Results

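The endoplasmic reticulum (ER) is where secreted and membrane proteins enter the secretory route, fold and are checked, and 35 genes of this folding and stress machinery were followed through 8 fractions of mouse bone marrow at 2 ages. They were taken by symbol from the raw gene count table, without a filter on their values, though with earlier results of these data known. All 35 of the listed symbols were among its 24421 rows. The samples were hematopoietic stem cells (HSCs), the multipotent progenitors MPP1, MPP2, MPP3 and MPP4, and 3 committed fractions, the granulocyte-macrophage progenitors (GMPs), megakaryocyte-erythroid progenitors (MEPs) and common lymphoid progenitors (CLPs), sorted from the bone marrow of female C57BL/6 mice that were 10 weeks old (young) or 20 months old (aged). HSCs and MPPs came from lineage-negative Sca-1+ c-kit+ cells, divided by CD34, CD150, CD48 and Flt3; GMPs and MEPs came from Sca-1- c-kit+ cells, divided by the Fc gamma receptor and CD34; and CLPs were sorted as IL-7 receptor-positive cells low for Sca-1 and c-kit. The labels name no transgene or treatment, and each of the 16 groups had 2 RNA-seq libraries. The study describes the duplicates both as sorts of marrow pooled by age and as biological duplicates, so the p-values measure the spread between these libraries, which may be technical. The question put by this design is how the transcriptome of each fraction changes with age.

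Proteins enter the ER through the Sec61 channel, lose their signal peptide and receive sugar chains, and then fold with the help of chaperones and of isomerases that form disulfide bonds. Proteins that fail are sent back to the cytosol for destruction (ER-associated degradation, ERAD). When unfolded proteins build up, the sensors Ern1 (IRE1), Atf6 and Eif2ak3 (PERK) start the unfolded protein response: Ern1 splices Xbp1 RNA, Atf6 is cut to release a transcription factor, and Eif2ak3 slows protein synthesis and favours translation of Atf4, which in turn acts on Ddit3 (CHOP). Xbp1 and cleaved Atf6 act on chaperone genes through a promoter motif called the ER stress response element (ERSE), and the response is best known in cells that secrete much protein, such as plasma cells. Counts of total Xbp1 RNA do not show its splicing.

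To show what the chaperone genes share in sequence, the 250 bases before the transcription start were searched on both strands in the RefSeq promoters of GRCm38.p6, which held 29 of the 35 genes (none for Derl1, Manf, Sec61a1, Sec11c, Hyou1 and Atf6). Of the letters searched, those of the ERSE, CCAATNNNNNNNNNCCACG, were found in 8 of the 29 (Hspa5, Calr, Canx, Pdia6, Hsp90b1, Dnajc3, Creld2 and Syvn1), against 0.113% of 32851 promoters. The 29 were counted by gene and the background by promoter entry, these genes included. Since the element is known from chaperone genes, these counts are descriptions. The related element ERSE-II was found before Herpud1 and in 0.0304% of promoters, and Herpud1 also held TTGCATCA, the letters of the composite element that Atf4 binds together with C/EBP factors (0.791% of promoters). The letters TGACGTGG of an element bound by Xbp1 were in 0.563% of promoters, and 0 of the 29 held them in this window. Starts here are those of RefSeq. The GENCODE start of Hspa5, given below as 34771970, lies before its ERSE, which by that annotation falls within the gene. The windows follow in the direction of the gene with the motifs in capitals; a motif that reads CGTGG first lies on the opposite strand. They lie at chr2:34772010-34772058 (Hspa5, plus strand), chr8:84847060-84847108 (Calr, minus), chr11:50325785-50325833 (Canx, minus), chr12:17266476-17266524 (Pdia6, plus), chr10:86705518-86705671 (Hsp90b1, minus), chr14:118937812-118937860 (Dnajc3, plus), chr15:88819505-88819553 (Creld2, plus), chr19:6046517-6046565 (Syvn1, plus) and chr8:94386302-94386402 (Herpud1, plus).
Hspa5: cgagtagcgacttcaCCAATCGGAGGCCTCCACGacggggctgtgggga
Calr: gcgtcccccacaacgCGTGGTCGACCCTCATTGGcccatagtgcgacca
Canx: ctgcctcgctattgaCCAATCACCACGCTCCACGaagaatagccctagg
Pdia6: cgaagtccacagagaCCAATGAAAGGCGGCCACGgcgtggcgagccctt
Hsp90b1: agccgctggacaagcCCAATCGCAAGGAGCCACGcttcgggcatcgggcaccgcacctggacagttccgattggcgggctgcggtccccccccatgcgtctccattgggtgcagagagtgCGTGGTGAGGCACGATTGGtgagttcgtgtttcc
Dnajc3: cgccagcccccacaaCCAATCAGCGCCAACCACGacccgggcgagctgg
Creld2: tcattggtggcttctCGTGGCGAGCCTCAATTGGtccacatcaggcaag
Syvn1: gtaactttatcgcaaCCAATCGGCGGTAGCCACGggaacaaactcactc
Herpud1: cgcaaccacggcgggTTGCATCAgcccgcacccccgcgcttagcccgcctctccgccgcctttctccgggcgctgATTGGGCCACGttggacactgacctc

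Libraries held 11237384 to 17723245 counts (median 13489609.5), and the lowest count of any of the 35 genes in any library was 49 (Ddit3, Ern1 and Dnajb9 aside, 135), so all 35 passed the filter on low counts with 14154 genes in all. Levels are given as CPM, read counts scaled to library size with TMM factors, with both libraries of a group. Transcripts of the sorting antigens followed the gates for the most part: Slamf1 (CD150) averaged 53.9 CPM in young and 74.1 CPM in aged HSCs, Flt3 was highest in MPP4 (1063 and 732 CPM) and Fcgr3 in GMPs (481 and 493 CPM). Il7r, the antigen of the CLP gate, was at 158 and 195 CPM in CLPs, but young MEPs also held 13.4 CPM of it and 205 to 210 CPM of 8 summed B lineage markers, against 0.861 to 1.22 CPM in aged MEPs. Duplicates of the aged HSCs, aged CLPs and aged MPP3 differed most, with chi-square values per degree of freedom of 19.04, 18.6 and 15.8. In bulk RNA, fewer cells of a type and less RNA per cell cannot be told apart.

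The 35 genes together were at 7232 to 7240 CPM in young HSCs, at 7316 to 8275 CPM in young MPPs and at 26216 to 26455 CPM in young GMPs. Young MEPs held 9880 to 10115 CPM and young CLPs 10955 to 11025 CPM. GMPs are progenitors of granule-bearing cells, and a link of these levels to granules was not tested. Of the 35 genes, 26 had their highest young mean in GMPs, while 15 had their lowest in HSCs (shares over all genes were not computed). Among the exceptions, Ppp1r15a, Dnajb9 and Ern1 were highest in young HSCs, and the sensors Atf6 and Eif2ak3, the transcription factor Atf4 and the ERAD ubiquitin ligase Syvn1 were highest in young CLPs. The share of all counts taken by the 35 genes ran from 0.780% to 2.16% across the 32 libraries. Per kilobase of the longest transcript and averaged over the 16 groups, the lectin chaperone Calr (598 CPM per kb), the disulfide isomerases P4hb (386) and Pdia3 (309) and the chaperone Hspa5, also called BiP (300.1), were the most abundant. The sensors Ern1 (5.96 CPM per kb), Eif2ak3 (7.48) and Atf6 (8.84), with Ddit3 (8.79), were the least abundant.

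**Figure D1:**
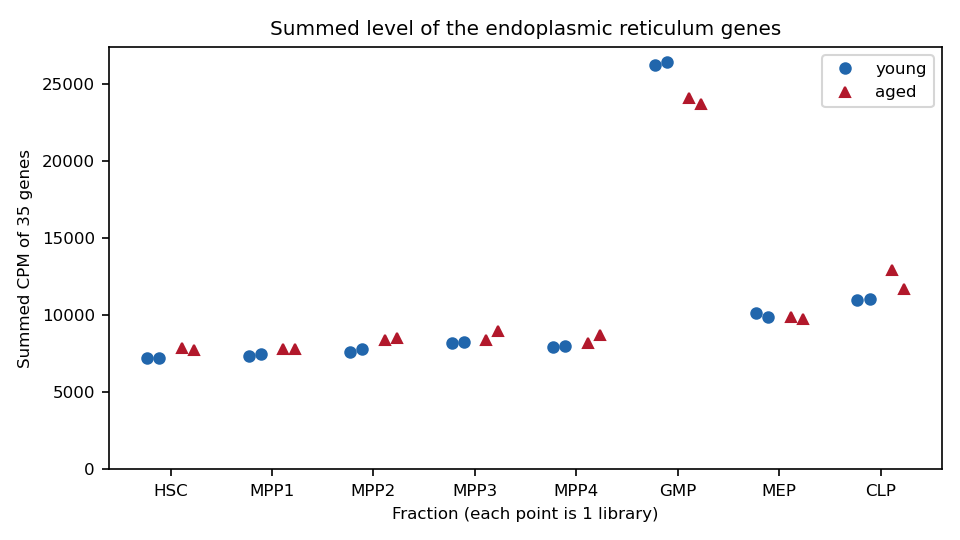
Summed CPM of the 35 genes (vertical axis) in each of the 32 libraries by fraction (horizontal axis), with young libraries as circles and aged libraries as triangles. Both young GMP libraries lie at 26216 and 26455 CPM and both aged ones at 24085 and 23741 CPM, above all other libraries, of which the highest is an aged CLP library at 12912 CPM.

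Over the 16 group means, the levels of most chaperone and translocation genes moved with Hspa5. Pearson's r with Hspa5 on the log2 scale was 0.96 for Manf, a small stress-induced ER protein, 0.96 for Sec61a1, the pore of the translocon, and 0.94 for Ssr1 of the translocon-associated complex. It was 0.34 for Edem2, -0.13 for Atf4, -0.55 for Dnajb9 and -0.90 for Ppp1r15a, the phosphatase subunit that reverses the translation block of Eif2ak3. These 16 points share the fractions and the scaling, and the GMP groups lie far from the rest, so the values are descriptions.

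**Figure D2:**
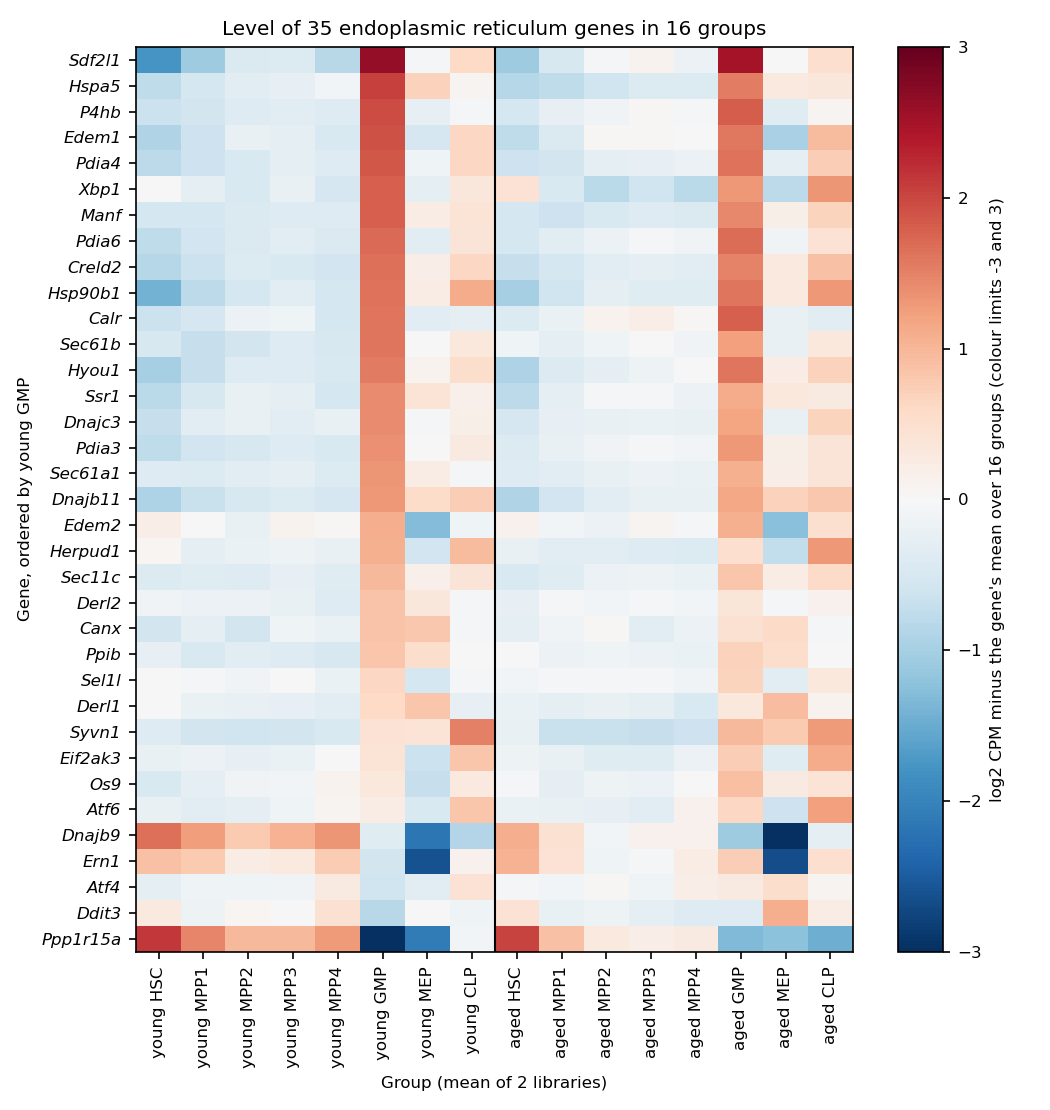
Mean log2 CPM of each of the 35 genes (rows) in each of the 16 groups (columns), minus the gene's mean over the groups. Colour limits are -3 and 3, and values beyond them take the end colour. Most rows are darkest red in young and aged GMPs, while Ppp1r15a, Dnajb9 and Ern1 near the lower end are red in HSCs and blue in MEPs.

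The step from MPP3 to GMP held the largest differences of the set. In young mice 28 genes were higher and 5 lower in GMPs than in MPP3 at an adjusted p under 0.01, 94.3% of the set against 58% of all genes tested, and the median log2 fold change was 1.62 against -0.07 over all genes. Hspa5 was at 743 and 788 CPM in young MPP3 and at 3720 and 3844 CPM in young GMPs (log2 fold change 2.30, SE 0.10). P4hb went from 727 and 743 to 3569 and 3616 CPM (2.29, SE 0.05). Sdf2l1, a partner of Hspa5 in chaperone complexes, went from 75.8 and 77.9 to 662 and 620 CPM (3.06, SE 0.10). In all 3 genes the GMP libraries lay far above the MPP3 libraries. All 9 genes with an ERSE or ERSE-II in the windows above were among the 28 of 35, from Canx (0.98) to Hspa5. So were P4hb and Sdf2l1, whose searched promoters held neither element, and a link of the motifs to the levels was not tested. Of the 5 lower genes, Ppp1r15a fell from 456 and 509 CPM to 9.62 and 15.2 CPM (-5.28, SE 0.24), and Dnajb9 (-1.39), Ddit3 (-0.84), Ern1 (-0.84) and Atf4 (-0.49) were also lower, whereas Xbp1 (2.02) was higher. The summed level of 12 genes induced by handling and heat, such as Fos and Hspa1a, moved with Ppp1r15a, from 13576 to 14521 CPM in young MPP3 to 5051 to 5118 CPM in young GMPs. Its part in these values was not tested. Ern1 missed the threshold without young MPP3 replicate 1 or young GMP replicate 2 (-1.25 to -0.68 over the 4 fits) and with offsets for GC content and length.

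In aged mice the same step had 32 genes higher and 2 lower (97.1% of the set against 43.6% of all genes), with a median of 1.23. Hspa5 was at 620 and 757 CPM in aged MPP3 and at 2710 and 2524 CPM in aged GMPs (1.93, SE 0.10), and Xbp1 at 117 and 119 CPM and at 451 and 435 CPM (1.91, SE 0.10). Sdf2l1 differed by 2.40 and Hsp90b1, the ER form of Hsp90, by 1.96. Ppp1r15a (-1.52) and Dnajb9 (-1.19) were lower again, whereas Atf4 (0.38) and Ern1 (0.79) were higher in aged GMPs than in aged MPP3. Of these, Ern1 missed the threshold without any 1 of the 4 libraries (0.60 to 0.90) and Atf4 without aged MPP3 replicate 1, aged GMP replicate 1 or aged GMP replicate 2 (0.16 to 0.47). Whether the step itself differs between the ages was not tested, and the steps share their libraries with the comparisons of age.

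The step to MEPs moved fewer chaperones. In young mice 18 genes were higher and 8 lower in MEPs than in MPP2 (74.3% against 64% of all genes tested, whose own median was -0.24). Canx, the membrane-bound lectin chaperone, went from 391 and 649 CPM in young MPP2 to 1372 and 1312 CPM in young MEPs (1.37, SE 0.19). Hspa5 (1.05), the ERAD channel component Derl1 (1.05) and Syvn1 (1.00) were higher too. Ern1 fell from 39.0 and 41.5 CPM to 3.14 and 8.04 CPM (-2.87, SE 0.27) and Dnajb9 from 65.4 and 60.4 to 8.07 and 8.04 CPM (-2.96, SE 0.14), so that MEPs held the least of both among the 8 fractions. Ppp1r15a fell from 492 and 462 to 65.1 and 50.04 CPM (-3.05), and Edem2, an ERAD mannosidase, was lower by 1.07 on the log2 scale. The 12 handling and heat genes summed to 11713 to 11768 CPM in young MPP2 and 6360 to 6611 CPM in young MEPs. Their part in the Ppp1r15a value was not tested. In aged mice 15 genes were higher and 8 lower (65.7% against 60.5%, median over all genes -0.16), again with Dnajb9 (-2.91), Ern1 (-2.52) and Ppp1r15a (-1.51) lowest and Syvn1 (1.47) highest. Ddit3 (1.24) and Atf4 (0.49) were called higher in aged MEPs than in aged MPP2.

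CLPs held more of most genes than MPP4. In young mice 24 were higher and 2 lower (74.3% against 41.8% of all genes). Syvn1 went from 39.6 and 38.2 CPM in young MPP4 to 146 and 157 CPM in young CLPs (1.96, SE 0.12), Hsp90b1 from 358 and 346 to 1126 and 1076 CPM (1.65, SE 0.08) and Sdf2l1 from 52.5 and 62.1 to 149 and 161 CPM (1.44, SE 0.10). These 3 genes did not overlap between the fractions. Dnajb9 fell from 84.2 and 96.7 to 19.3 and 20.1 CPM (-2.20, SE 0.13), and Ppp1r15a by 1.36. The 12 handling and heat genes summed to 16185 to 16202 CPM in young MPP4 and 7655 to 7659 CPM in young CLPs. Their part in the Ppp1r15a value was not tested. In aged mice 24 genes were higher and 3 lower (77.1% against 40.5%). The largest difference there was that of Xbp1, from 103 and 100.3 CPM in aged MPP4 to 494 and 409 CPM in aged CLPs (2.15, SE 0.10), ahead of Syvn1 (1.90) and the ERAD protein Herpud1 (1.70). The summed level of 8 marker genes of plasmacytoid dendritic cells, which secrete much interferon, was 297 to 316 CPM in young MPP4 and 5716 to 5795 CPM in young CLPs, and 360 to 376 CPM and 8696 to 12061 CPM in the aged. Its part in the CLP levels was not tested.

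Between HSCs and MPP1 the set differed least. In young mice 4 genes were called, 11.4% against 14.8% of all genes, all of them lower in HSCs: Sdf2l1 (29.5 and 30.5 CPM in HSCs, 43.7 and 54.6 CPM in MPP1, -0.71), Hsp90b1 (-0.62), the co-chaperone Dnajc3 (-0.35) and Ssr1 (-0.34). Ssr1 missed the threshold without young HSC replicate 2 or young MPP1 replicate 2 and Dnajc3 without any 1 of the 4 libraries, leaving 2 or 3 calls. DESeq2 called 8 genes, 3 higher and 5 lower, and a fit with offsets for GC content and length 9, but in the latter Ssr1 (-0.11, adjusted p 0.401) and Dnajc3 (-0.17, adjusted p 0.136) missed the threshold. Dnajc3 also missed it with DESeq2 size factors (adjusted p 0.0118) and with no filter (0.0120). In aged mice 4 genes were higher and 7 lower in HSCs (31.4% against 22.9%). Ppp1r15a was at 967 and 1030 CPM in aged HSCs and at 468 and 439 CPM in aged MPP1 (1.14, SE 0.20), and Xbp1 at 217 and 265 CPM and at 127 and 135 CPM (0.88, SE 0.10). Both genes lay higher in each HSC library than in each MPP1 library and kept their calls in all alternatives run. Dnajb9 (0.63) missed the threshold without aged HSC replicate 1 (0.35) or aged MPP1 replicate 2 (0.52), Sdf2l1 differed by -0.57, and the set had 7 calls without aged HSC replicate 2 and 2 in a fit of the 4 libraries alone. All 12 proliferation genes were lower in HSCs than in MPP1 at both ages. The 12 handling and heat genes summed to 18311 to 20315 CPM in aged HSCs and 13300 to 13645 CPM in aged MPP1. Their part in the Ppp1r15a value was not tested.

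With age, 27 of the 35 genes were called in at least 1 of the 8 fractions, against 46.2% of all genes tested. Of the 35, 13 were called only higher, 4 only lower and 10 in both directions, against 20.1%, 16.6% and 9.5% of all genes. The age difference itself varied over the 8 fractions for 23 genes in a test of the interaction, 65.7% of the set against 34.9% of all genes tested. Canx, Pdia6, Atf6, Eif2ak3, Hsp90b1, Dnajb11, Manf, Creld2, Hyou1, Sel1l, Ppib and Sec11c did not pass that test.

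**Figure D3:**
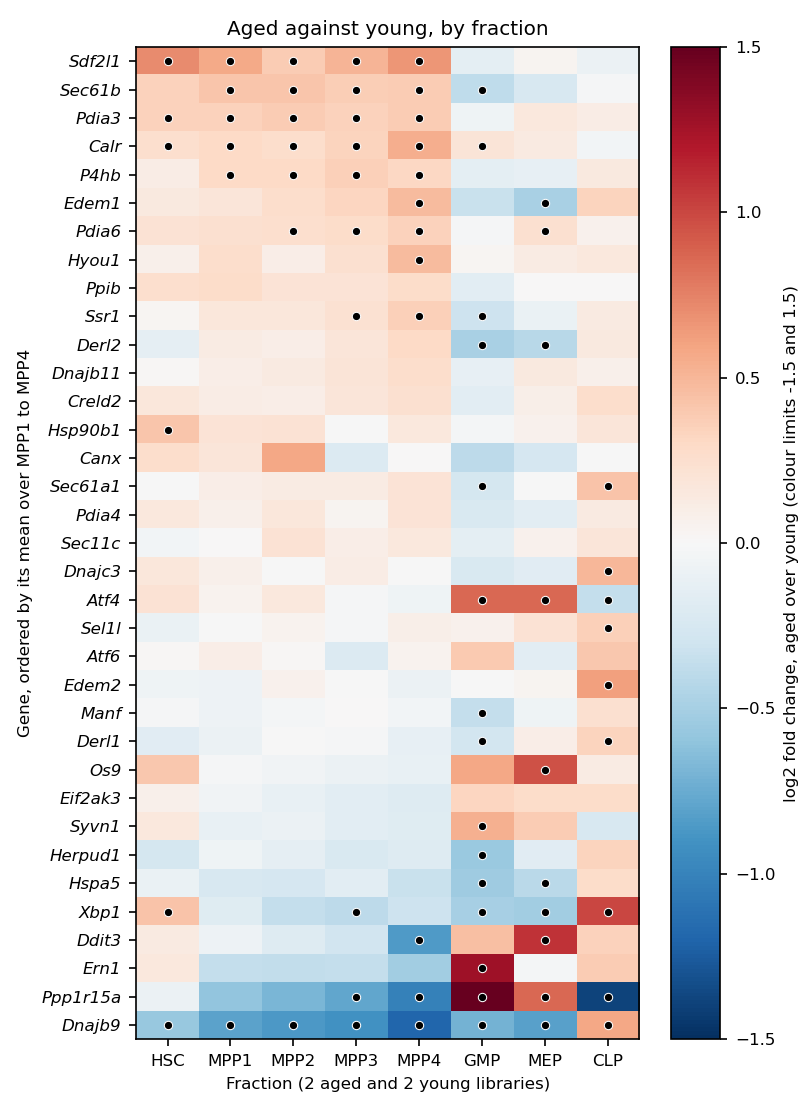
Log2 fold change of aged over young cells for each of the 35 genes (rows) in each fraction (columns), from 2 aged and 2 young libraries. Dots mark an adjusted p under 0.01 and values beyond the colour limits of -1.5 and 1.5 take the end colour. Sdf2l1, Sec61b, Pdia3, Calr and P4hb are called higher in each of MPP1 to MPP4, Dnajb9 is called lower in all fractions but CLP, and GMP, MEP and CLP each show another pattern.

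In aged HSCs 5 genes were higher and 1 lower, 17.1% of the set against 5.4% of all genes tested. Sdf2l1 (ENSMUSG00000022769.9, chromosome 16, 17130138 to 17132383, minus strand) was at 29.5 and 30.5 CPM in young and at 45.7 and 52.9 CPM in aged HSCs (0.71, SE 0.10, adjusted p 6.30e-05). Hsp90b1 was at 198 and 182 CPM in young and at 274 and 233 CPM in aged HSCs (0.42, SE 0.08, adjusted p 0.00104). Calr and the glycoprotein isomerase Pdia3 were higher by 0.25 and 0.35. The aged libraries lay above the young ones in each of these genes, and the same held for Xbp1, at 185 and 173 CPM in young and 217 and 265 CPM in aged HSCs (0.43, SE 0.10, adjusted p 0.00663). Dnajb9 was lower, from 110 and 118 CPM to 91.0 and 63.7 CPM (-0.56, SE 0.12, adjusted p 0.00394). Hspa5 overlapped between the ages (541 and 526 CPM, then 539 and 461 CPM; -0.09, adjusted p 0.618). Beside these, 7 of 10 neutrophil granule genes were higher in aged HSCs (summed 278 to 303 CPM in young, 651 to 845 CPM in aged libraries), as were 6 of 12 proliferation genes. Basophil and mast cell markers (4 of 6 higher; 0.978 to 1.62 CPM, then 10.3 to 18.2 CPM) and megakaryocyte markers (2 of 6 higher; 338 to 345, then 556 to 614 CPM) were also higher in sum, and macrophage markers lower (3 of 8 lower; 59.3 to 71.7, then 22.2 to 33.4 CPM). The part of these lists in the result was not tested. When only the 4 HSC libraries were fitted, 0 of the 6 calls passed (8 genes had an unadjusted p under 0.05), while DESeq2 on all libraries called 8 genes, these 6 among them. When 1 library was left out, Sdf2l1 kept its call (0.60 to 0.82). Xbp1 missed the threshold without young HSC replicate 1 (0.47), young HSC replicate 2 (0.38) or aged HSC replicate 2 (0.27), and Dnajb9 without the same libraries (-0.62, -0.51 and -0.33). Calr missed it without young HSC replicate 1 (0.20) or aged HSC replicate 2 (0.21), and Hsp90b1 without young HSC replicate 2 (0.36) or aged HSC replicate 1 (0.30), the libraries without which Pdia3 also missed it (lowest value 0.24).

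MPP1 to MPP4 had one pattern in common. Calr, Pdia3, P4hb, Sdf2l1 and Sec61b, a small subunit of the translocon, were higher in aged cells in each of the 4 fractions, and Dnajb9 was lower in each. The calls numbered 5 higher and 1 lower in MPP1 (17.1% against 6.8% of all genes), 6 and 1 in MPP2 (20% against 7.81%), 7 and 3 in MPP3 (28.6% against 13.9%) and 9 and 3 in MPP4 (34.3% against 16.6%). The median log2 fold change of the set was 0.08, 0.10, 0.00 and 0.09, so the calls higher stood among many genes near 0. No library was shared between these 4 comparisons, but all came from the same fit. The study describes marrow pooled by age, so the fractions may share mice and were not taken as independent repeats.

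Calr (ENSMUSG00000003814.8; minus strand of chromosome 8, 84841850 to 84846934) stood at 796 and 778 CPM in young and at 1160 and 1139 CPM in aged MPP4 (0.55, SE 0.05, adjusted p 4.19e-08). In MPP1 it was at 798 and 796 CPM and at 963 and 1003 CPM (0.30), in MPP2 at 999 and 1010 CPM and at 1201 and 1215 CPM (0.27) and in MPP3 at 1070 and 998 CPM and at 1303 and 1299 CPM (0.33). The aged libraries were above the young ones throughout. Sdf2l1 differed by 0.57, 0.38, 0.51 and 0.66 in MPP1 to MPP4, for example from 52.5 and 62.1 to 95.3 and 85.5 CPM in MPP4. Pdia3 was higher by 0.35 to 0.39 and P4hb by 0.30 to 0.36. Sec61b went from 48.8 and 51.4 to 67.7 and 65.5 CPM in MPP1 (0.41), and by 0.37 to 0.41 in the others; 12.5% of its sequence words of 60 bases also occur in other genes. Pdia6, another disulfide isomerase, was called higher in MPP2, MPP3 and MPP4 (0.25, 0.28 and 0.35), Ssr1 in MPP3 and MPP4 (0.23 and 0.35), and Hyou1 (0.48), a co-chaperone of Hspa5, and Edem1 (0.47), which marks proteins for ERAD, in MPP4.

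Hspa5 itself did not follow these chaperones. It was at 622 and 645 CPM in young and 548 and 527 CPM in aged MPP1 (-0.24, adjusted p 0.109), at 747 and 679 and then 571 and 629 CPM in MPP2 (-0.25, 0.0815), at 743 and 788 and then 620 and 757 CPM in MPP3 (-0.15, 0.265) and at 905 and 821 and then 651 and 715 CPM in MPP4 (-0.34, 0.0106). Only in MPP3 did the libraries of the 2 ages overlap, but none of the 4 differences passed the threshold in the fit used. With 2 libraries an age, separation alone is weak, and its share over all genes was not computed. In MPP4, DESeq2 (-0.39), its size factors (-0.39), no filter on low counts (-0.38) and the offsets (-0.35) put Hspa5 past the threshold, and leaving out 1 library did not (-0.41 to -0.26). Dnajb9 (ENSMUSG00000014905.4, chromosome 12, 44205559 to 44210326, minus strand), a J-domain partner of Hspa5 encoded by a known target gene of Xbp1, went from 84.2 and 96.7 to 37.5 and 41.9 CPM in MPP4 (-1.19, SE 0.13, adjusted p 6.44e-07). The same gene went from 85.4 and 89.1 to 52.0 and 48.1 CPM in MPP1 (-0.80), from 65.4 and 60.4 to 34.6 and 34.4 CPM in MPP2 (-0.87) and from 78.2 and 71.7 to 38.5 and 41.3 CPM in MPP3 (-0.91). No library of one age reached the other in any of the 4 fractions, and the call held in each alternative that was run for them.

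Of the sensors and transcription factors of the stress response and the phosphatase subunit Ppp1r15a, the genes called lower were Ppp1r15a and Xbp1 in aged MPP3 and Ppp1r15a and Ddit3 in aged MPP4, and Atf4, Atf6, Ern1 and Eif2ak3 were called in neither. Ppp1r15a (ENSMUSG00000040435.12, chromosome 7, 45522916 to 45526268, minus strand) went from 644 and 543 to 281 and 309 CPM in MPP4 (-1.01, SE 0.20, adjusted p 5.89e-04) and from 456 and 509 to 234 and 327 CPM in MPP3 (-0.78, adjusted p 0.00576). Ddit3 went from 12.6 and 9.74 to 5.56 and 6.87 CPM in MPP4 (-0.84, adjusted p 0.00285), and in MPP1 (7.44 and 7.17, then 7.15 and 6.76 CPM), MPP2 (8.77 and 8.03, then 6.11 and 8.53 CPM) and MPP3 (8.12 and 8.21, then 6.23 and 7.14 CPM) it did not pass. Xbp1 went from 159 and 150 to 117 and 119 CPM in MPP3 (-0.39, adjusted p 0.00689), and its values were 143 and 154, then 127 and 135 CPM in MPP1 (-0.18), 131 and 131, then 107 and 97.4 CPM in MPP2 (-0.36, adjusted p 0.0187) and 120 and 132, then 103 and 100.3 CPM in MPP4 (-0.31, adjusted p 0.0270). Aged Xbp1 levels were thus below the young ones in all 4 fractions with 1 of the differences called. In MPP2, DESeq2 (-0.37) and a fit of the 4 libraries alone (-0.35) put Xbp1 past the threshold, and in MPP4 DESeq2 (-0.36), its size factors (-0.36) and the offsets (-0.34) did. Atf4 overlapped between the ages in MPP1 (130 and 123, then 139 and 122 CPM), MPP3 (124 and 133, then 120 and 134 CPM) and MPP4 (182 and 148, then 149 and 165 CPM), and in MPP2 it was at 127 and 125, then 138 and 143 CPM (0.16, adjusted p 0.279).

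Proliferation genes moved beside these differences: 11, 7, 11 and 10 of 12 were higher in aged MPP1 to MPP4, with sums of 3163 to 3196 CPM in young and 4600 to 4670 CPM in aged MPP4. Of 8 macrophage markers 3, 4, 6 and 6 were lower (summed 69.4 to 80.1 CPM in young, 13.1 to 14.4 CPM in aged MPP4). Of 10 neutrophil granule genes 6 were lower in MPP2 and 6 in MPP3 (4661 to 4926 CPM, then 2286 to 2306 CPM in MPP3). Of 8 erythroid markers 4 were lower and 1 higher in MPP2 (summed 644 to 742, then 213 to 219 CPM), and 5 lower and 1 higher in MPP3 (668 to 777, then 198 to 218 CPM). Plasma cell markers summed to 162 to 174 CPM in young and 50.7 to 54.1 CPM in aged MPP4, with 2 of 6 tested called lower. The part of these lists in the result was not tested. In fits of the 4 libraries of a fraction alone the calls numbered 13 in MPP1 and 14 in MPP2, but 4 in MPP3 and 5 in MPP4. With all 32 libraries and no filter on low counts, Sec61b missed the threshold in MPP1 (adjusted p 0.0133) and MPP2 (0.0152). Sdf2l1 in MPP2 missed it with no filter (adjusted p 0.0193) and with DESeq2 size factors (0.0118). Leaving out any 1 of the libraries compared ended the calls of Sec61b in MPP1, MPP2 and MPP3, of Sdf2l1 and Pdia6 in MPP2, and of Xbp1 and Ssr1 in MPP3 (adjusted p up to 0.0838, direction kept). In MPP3, Ppp1r15a missed the threshold without young replicate 1 (-0.83), young replicate 2 (-0.70) or aged replicate 1 (-0.56) and Pdia6 without young replicate 1 or aged replicate 2 (0.23 to 0.34 over the 4 fits). In MPP4, Ppp1r15a missed it without young replicate 1 (-0.87) or aged replicate 1 (-0.94) and Ddit3 without the same libraries (-0.64 and -0.70). Also in MPP4, Edem1 missed it without either young library or aged replicate 1 (0.35 to 0.59), Sec61b without young replicate 1 or either aged library (0.27 to 0.52), Hyou1 without young or aged replicate 2 (0.38 to 0.59) and Pdia6 without young replicate 1 (0.25 to 0.46). In MPP1, Pdia3 missed it without young replicate 1 (0.33 to 0.43).

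**Figure D4:**
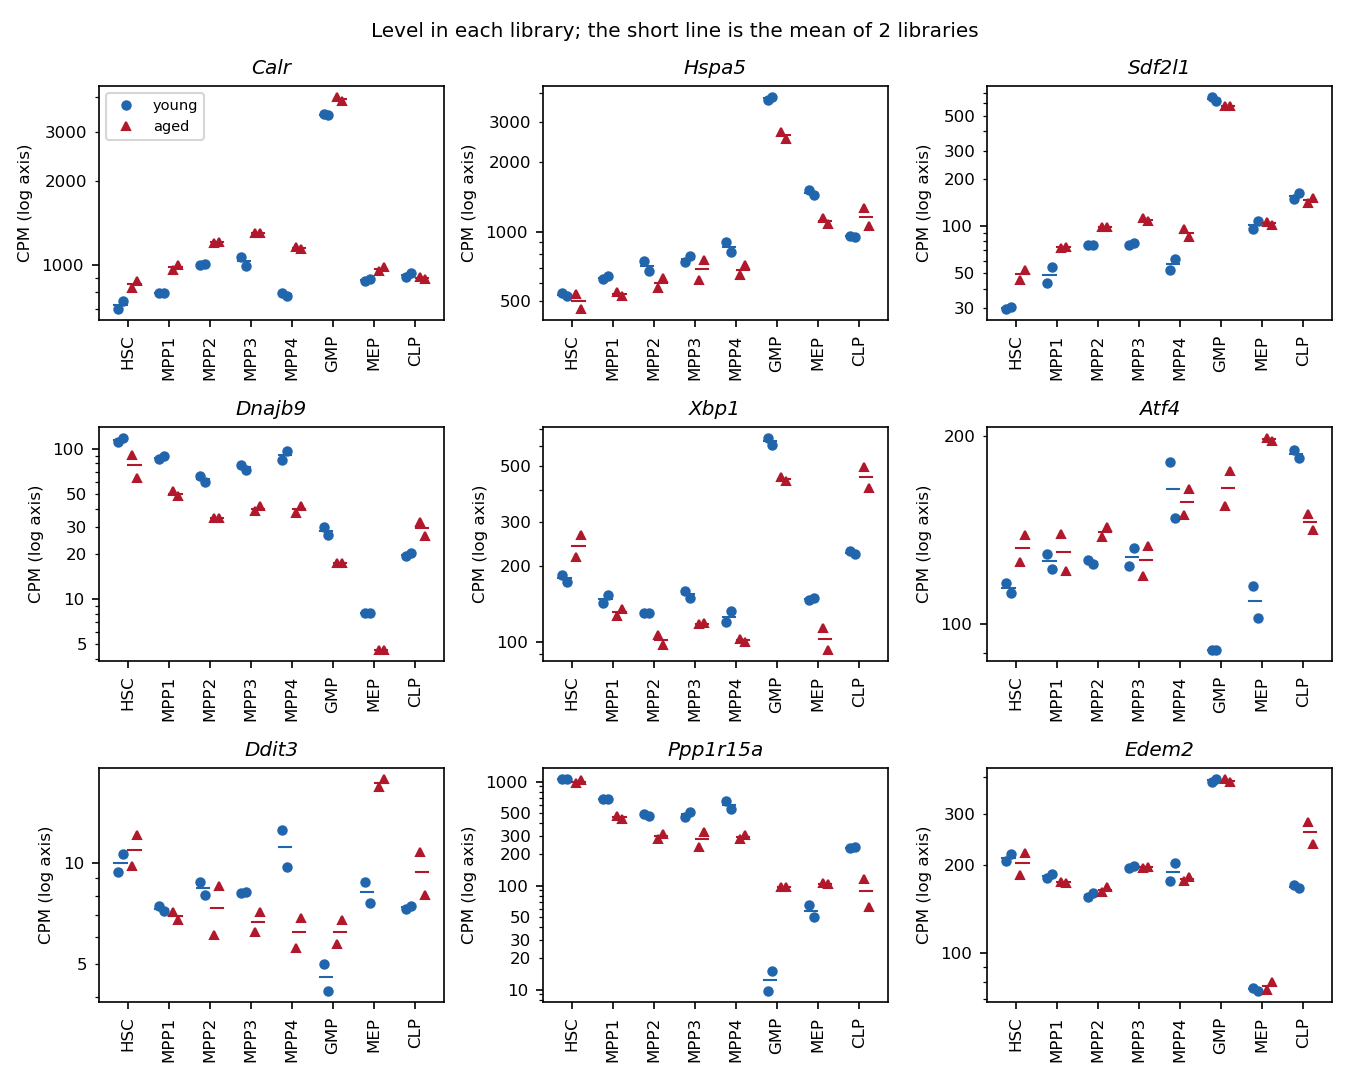
CPM on a log axis of 9 genes in each library by fraction, with young libraries as circles, aged libraries as triangles and a short line at the mean of 2 libraries. Calr and Sdf2l1 lie higher and Dnajb9 lower in aged MPPs, Hspa5 is lower in aged GMPs and MEPs, Atf4 is higher in both, and Xbp1 and Edem2 are higher in aged CLPs.

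In aged GMPs, the fraction with the highest levels, 10 genes were lower and 5 higher (42.9% of the set against 18.9% of all genes), with a median of -0.15 against 0 over all genes. Hspa5 (ENSMUSG00000026864.13, chromosome 2, 34771970 to 34777547, plus strand) went from 3720 and 3844 CPM in young to 2710 and 2524 CPM in aged GMPs (-0.53, SE 0.09, adjusted p 2.23e-04). Xbp1 (ENSMUSG00000020484.18, chromosome 11, 5520659 to 5525893, plus strand) went from 645 and 604 to 451 and 435 CPM (-0.50, SE 0.10, adjusted p 6.21e-04). For both genes the aged libraries lay below the young ones. The translocation and ERAD genes called lower were Sec61a1 (-0.26), Sec61b (-0.38), Ssr1 (-0.32), Herpud1 (-0.56), Derl1 (-0.27) and Derl2 (-0.49), and Manf (-0.36) was lower too. Dnajb9 went from 30.2 and 26.8 to 17.4 and 17.5 CPM (-0.71, adjusted p 5.20e-04), and with offsets for GC content and length by -0.33 (adjusted p 0.0235).

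Of the 5 genes higher in aged GMPs, Ppp1r15a went from 9.62 and 15.2 CPM in young to 98.0 and 97.2 CPM in aged GMPs (2.97, SE 0.23, adjusted p 1.48e-08), Ern1 from 28.3 and 18.9 to 54.5 and 59.6 CPM (1.27, SE 0.23, adjusted p 2.85e-04) and Atf4 from 91.1 and 90.9 to 154 and 176 CPM (0.86, SE 0.10, adjusted p 1.17e-06). In all 3 the ages were apart. Ddit3 was at 4.99 and 4.15 CPM in young and 5.73 and 6.77 CPM in aged GMPs (0.45, adjusted p 0.116). Calr, at 3462 and 3434 CPM in young and 4002 and 3857 CPM in aged GMPs (0.19, SE 0.05, adjusted p 0.00355), and Syvn1 (0.53) were also higher, so Calr and Hspa5, both with an ERSE in their promoter window, were called in opposite directions in this fraction. Of the 12 handling and heat genes 9 were higher in aged GMPs and 2 lower, with a median of 4.03 (Egr1 7.72, Hspa1a 6.48, Fos 5.39). Their sum moved less, from 5051 to 5118 CPM in young to 6206 to 6301 CPM in aged GMPs. The part of these genes in the Ppp1r15a value was not tested. Of 23 further stress response genes tested 3 were higher and 2 lower, and that list summed to 1670 to 1791 CPM in young and 1521 to 1574 CPM in aged GMPs. Markers of other cells moved in the same libraries: 5 of 8 erythroid markers were lower (summed 714 to 769, then 199 to 212 CPM), as were 2 of 6 basophil and mast cell markers (648 to 658, then 270.3 to 351 CPM) and 5 of 8 macrophage markers (149 to 166, then 103 to 141 CPM), and their part in the GMP differences was not tested. In a fit of the 4 GMP libraries alone 5 genes were called. Calr missed the threshold without young GMP replicate 1 (0.19), young GMP replicate 2 (0.18) or aged GMP replicate 1 (0.16), and Syvn1 without young GMP replicate 1 or aged GMP replicate 1 (0.33 to 0.70 over the 4 fits). Manf missed it without any 1 of the 4, Derl1 without young replicate 1 or either aged library (-0.34 to -0.21), Derl2 and Sec61b without young replicate 1 or aged replicate 1, Sec61a1 without young or aged replicate 2 and Ssr1 without young replicate 2. Without aged GMP replicate 1 the set had 9 calls, and without young GMP replicate 1 it had 10.

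In aged MEPs 5 genes were higher and 5 lower (28.6% against 20.8% of all genes). Atf4 (ENSMUSG00000042406.8, chromosome 15, 80255184 to 80257541, plus strand) went from 115 and 103 to 199 and 196 CPM (0.86, SE 0.09, adjusted p 5.39e-07) and Ddit3 (ENSMUSG00000025408.15, chromosome 10, 127290774 to 127296288, plus strand) from 8.77 and 7.61 to 16.9 and 17.8 CPM (1.08, SE 0.19, adjusted p 1.86e-04). MEPs were the fraction in which both Atf4 and Ddit3 were called higher. Os9, a lectin of ERAD, went from 151 and 140 to 274 and 293 CPM (0.96, SE 0.17) and Ppp1r15a from 65.1 and 50.04 to 105 and 104 CPM (0.86, SE 0.20). Pdia6 was higher by 0.24. Lower were Hspa5, from 1516 and 1436 to 1152 and 1083 CPM (-0.40, SE 0.09, adjusted p 0.00243), Xbp1, from 146 and 150 to 114 and 92.6 CPM (-0.52, SE 0.10, adjusted p 4.20e-04), Dnajb9 (-0.81), Edem1 (-0.49) and Derl2 (-0.41). Calr was at 880 and 896 CPM in young and 956 and 986 CPM in aged MEPs (0.13, adjusted p 0.0350). Trib3, a target of Ddit3 and Atf4 from the list of stress response genes, was higher by 2.23. That list as a whole summed to 2204 to 2222 CPM in young and 2206 to 2260 CPM in aged MEPs. Beside these, B lineage markers fell as given above and 5 handling and heat genes were higher (Hspa1a 4.87), with the whole list summing to 6360 to 6611 CPM in young and 5372 to 5858 CPM in aged MEPs; the part of either was not tested. The 4 MEP libraries alone gave 6 calls. Hspa5 missed the threshold without young MEP replicate 1 (-0.36) or aged MEP replicate 2 (-0.44), Ppp1r15a without young MEP replicate 2 (0.69), aged MEP replicate 1 (0.85) or aged MEP replicate 2 (0.78), and Pdia6 without any 1 of the 4. Dnajb9 missed it without either aged library (adjusted p up to 0.0152), and Edem1 and Derl2 without young MEP replicate 2 or aged MEP replicate 1, the library without which 5 calls remained.

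In aged CLPs 7 genes were higher and 2 lower (25.7% of the set against 10.4% of all genes), with a median of 0.18. Xbp1 was at 228 and 223 CPM in young and at 494 and 409 CPM in aged CLPs (1.00, SE 0.10, adjusted p 3.67e-07). Edem2 went from 171 and 167 to 282 and 237 CPM (0.62, SE 0.08, adjusted p 1.57e-05), and Dnajb9 from 19.3 and 20.1 to 32.5 and 26.5 CPM (0.58, SE 0.14, adjusted p 0.00437). In each of these the 2 aged libraries were higher than the young ones and differed from each other more than the young did. Dnajc3 (0.50), Sec61a1 (0.43), the ERAD adaptor Sel1l (0.35) and Derl1 (0.33) were also higher. Ppp1r15a went from 228 and 234 to 115 and 61.8 CPM (-1.38, SE 0.20, adjusted p 5.30e-05) and Atf4 from 190 and 185 to 150 and 141 CPM (-0.36, SE 0.09, adjusted p 0.00897). Hspa5 was at 962 and 953 CPM in young and 1266 and 1054 CPM in aged CLPs (0.28, adjusted p 0.0448), Calr at 906 and 937 and then 906 and 891 CPM (-0.04), and Ddit3 at 7.31 and 7.46 and then 10.8 and 8.03 CPM (0.35, adjusted p 0.243).

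Markers of other cells also moved in CLPs. Of 8 plasmacytoid dendritic cell markers 7 were higher in aged CLPs, with sums of 5716 to 5795 CPM in young and 8696 to 12061 CPM in aged libraries, and Siglech went from a mean of 1064 to 2622 CPM and Irf8 from 3218 to 4714 CPM. All 6 basophil and mast cell markers were lower (1748 to 1796 CPM, then 8.26 to 12.0 CPM), as were all 10 neutrophil granule genes (2025 to 2084, then 374 to 385 CPM) and 7 of 8 B lineage markers (2772 to 2845, then 1335 to 1350 CPM). Plasma cell markers summed to 488 to 523 CPM in young and 375 to 408 CPM in aged CLPs. In sum, macrophage markers (190 to 209, then 5.57 to 8.11 CPM) and erythroid markers (1115 to 1163, then 290 to 468 CPM) were lower. Megakaryocyte markers were higher in sum (37.8 to 39.6, then 126 to 196 CPM). The 12 proliferation genes summed to 5272 to 5278 CPM in young and 3656 to 4332 CPM in aged CLPs, whereas their sums rose with age in MPP1 to MPP4. Fos, Egr1, Dusp1 and 3 more handling genes were lower beside Ppp1r15a. The part of these shifts in the differences was not tested. The 4 CLP libraries alone gave 0 calls, with 17 genes at an unadjusted p under 0.05, and DESeq2 on all libraries called 13. Xbp1 (0.86 to 1.13), Edem2 (0.48 to 0.74), Sec61a1 (0.37 to 0.49) and Ppp1r15a (-1.90 to -1.003) kept their calls when any 1 library was left out. Dnajb9 missed the threshold without young CLP replicate 1 (0.55), young CLP replicate 2 (0.61) or aged CLP replicate 1 (0.42), as did Derl1 (0.23 to 0.43 over the 4 fits), and Dnajc3 without young CLP replicate 2 or aged CLP replicate 1 (0.36 to 0.63). Atf4 and Sel1l missed it without any 1 of the 4. The set had 4 calls without young CLP replicate 2 or aged CLP replicate 1, and 5 without young CLP replicate 1.

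The age difference in CLPs was then tested against the mean of those in MPP1 to MPP4. This contrast was chosen because earlier results of these data had shown CLPs apart from the MPPs. Its p-values thus come from the data that led to it. In this test 14 genes differed, 9 toward higher and 5 toward lower in CLPs (40% of the set against 22.6% of all genes). Dnajb9 differed most: its mean age difference was -0.94 over the MPPs and 0.58 in CLPs, a difference of 1.52 (SE 0.15, adjusted p 1.38e-07). Xbp1 followed with -0.31 and 1.00 (1.31, SE 0.11, adjusted p 2.27e-08). Both genes, which act in the Ern1 branch, thus had age differences of opposite sign in the MPP mean and in CLPs. Edem2, Hspa5, Herpud1, Dnajc3, Derl1, Sel1l and Sec61a1 differed by 0.64 to 0.29. In the other direction were the genes raised in the MPPs, Sdf2l1 (-0.62), Sec61b (-0.41), Calr (-0.40) and Pdia3 (-0.26), together with Atf4 (-0.39). Without aged CLP replicate 1 the count was 7 and Hspa5 (0.38 to 0.65 over the fits that left out 1 library), Derl1, Herpud1, Dnajc3 and Sec61a1 missed the threshold. Without young CLP replicate 1 it was 8 and without young CLP replicate 2 it was 9, and in both Pdia3, Atf4 and Sec61b missed the threshold. Dnajb9, Xbp1, Edem2, Calr and Sdf2l1 kept theirs in all alternatives run.

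**Figure D5:**
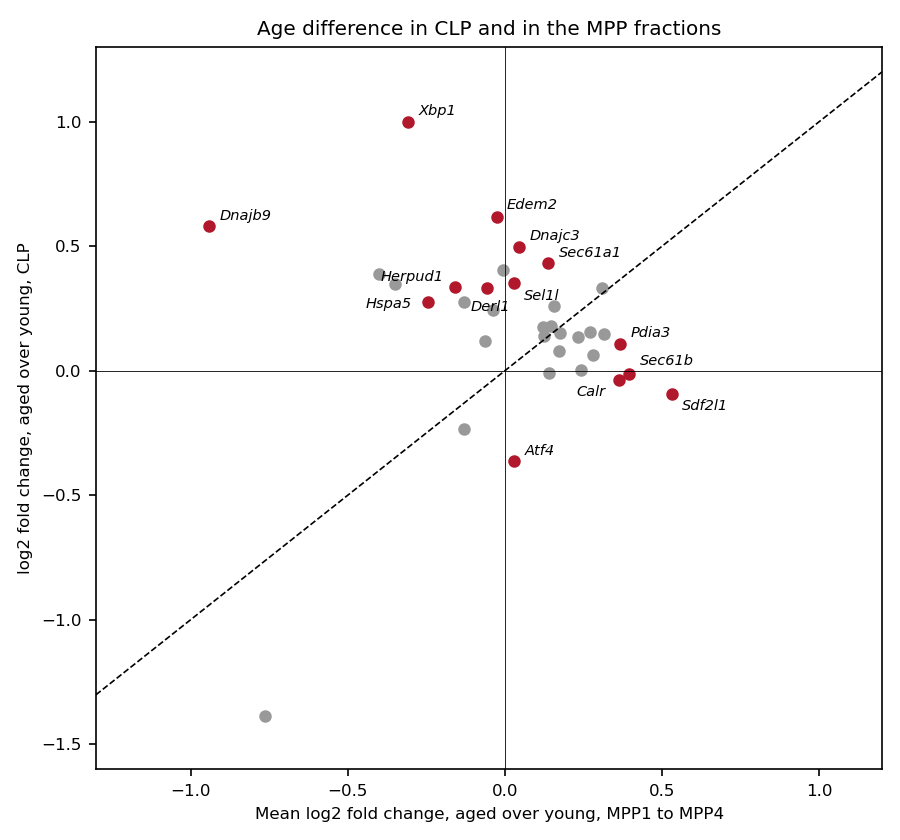
Log2 fold change of aged over young CLPs (vertical axis) against the mean of the 4 MPP fractions (horizontal axis), 1 point a gene. The dashed line marks equal differences, and the 14 red, named genes differed at an adjusted p under 0.01. Xbp1 and Dnajb9 lie far above the line at 1.00 and 0.58, and Sdf2l1, Calr, Sec61b and Pdia3 lie below it.

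Other genes of the same route were read for context. Of all genes tested, 4.71%, 4.49%, 8.14% and 10.3% were higher in aged MPP1 to MPP4 and 3.74% in aged HSCs, 9.93% were higher and 8.97% lower in aged GMPs, and 5.71% were higher and 4.73% lower in aged CLPs. Of 17 genes of oligosaccharide transfer and the calnexin cycle, 5, 5, 6 and 9 were higher in aged MPP1 to MPP4. In MPP4 these included Rpn1 (0.70), Rpn2 (0.60) and Mogs (0.63), which attach or trim the sugar chain that Calr and Canx read, and Uggt1 (0.65), which returns misfolded glycoproteins to them. Rpn1 (0.40) and Rpn2 (0.32) were also higher in aged HSCs. In GMPs 2 of the 17 were higher and 4 lower. Of 20 further translocation and signal peptidase genes 1 was higher in aged MPP4, 5% against 10.3% of all genes, and in aged GMPs 1 was higher and 6 were lower, among them Tram1 (-0.76), Spcs3 (-0.75) and Sec61g (-0.54), the same direction as Sec61a1, Sec61b and Ssr1. Of 17 oxidative folding genes and proline isomerases, 3 were higher in aged MPP4 (Pdia5 0.95, Fkbp11 0.87, Txndc5 0.40), and in GMPs 1 was higher and 5 were lower. Of 21 further ERAD genes tested, 2 were higher and 5 lower in aged GMPs, and Ubxn4 (0.54) was among those higher in aged CLPs. Of 23 further stress response genes tested 3 were higher in aged HSCs, Nupr1 (3.11), Atf3 (1.81) and Asns (0.69), and Asns, which makes asparagine and is a known Atf4 target, was higher by 1.09 in aged MPP4, where Atf4 itself was at -0.07. In aged CLPs 5 of the 23 were higher and 2 lower, with Atf3 at -2.95 and Creb3l2 at 0.94.

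Several symbols share sequence with other genes, so that the counts can be split or joined between them. Of their 60-base words, 29.5% were shared for Ppib, 14% for Sec61a1, 12.5% for Sec61b and 8.79% for Hsp90b1, and 6.98% or less for the others. Exons of 12 of the 35 genes overlap a gene on the opposite strand, and use of strand in the counting was not stated. The other 8 genes (Canx, Pdia4, Atf6, Eif2ak3, Dnajb11, Creld2, Ppib and Sec11c) were called in none of the 8 age comparisons. Duplicates of Canx differed widely in young MPP2, aged MPP3 and aged MPP4 (SD 183, 142 and 240 CPM), so missing calls there say little.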

How the data were processed

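RNA was sequenced from 8 sorted fractions at 2 ages, with 2 libraries per group (SMARTer Ultra Low Input kit, single reads, no molecular identifiers). The authors aligned reads to mm10 with TopHat2 2.0.13 and Bowtie2 2.1.0 and deposited raw counts per gene; use of strand is not given in the sources used here. Their normalized table and 8 tables of age comparisons (log2 fold changes, Wald statistics and p-values) were not used.

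Counts were analysed in R 4.3.3 with edgeR 4.0.16. Genes were filtered by filterByExpr, scaled by TMM and fitted over all 32 libraries with 16 group means. Differences were tested by the quasi-likelihood F-test, with Benjamini-Hochberg adjustment over 14154 genes per comparison and a threshold of 0.01; all adjusted p-values come from it. Mean differences of the age effects and the interaction came from the same fit. Alternatives were DESeq2 1.42.0 and its size factors, no filter, only the libraries compared, a replicate block, offsets for GC content and length, and leaving out each library. The duplicates differed by more than sampling noise, with chi-square values per degree of freedom of 4.59 to 19.04. Intervals of shares of counts were not used, and each library's total sets its precision.

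The genes, the lists and the contrast of CLPs with the MPP mean were chosen with earlier results of these data known. Any of the 35 genes may be named. Library values are given for Hspa5, Calr, Xbp1, Atf4 and Ddit3 and for up to 4 called genes of largest change per comparison, and values of others were added for genes already named. Genes outside the 35 come from fixed lists, up to 4 per list and comparison, and from the most abundant markers. The name and value of 1 gene counted in these lists are not reported here. Gene positions are from GENCODE M21 (GRCm38), which matched 23350 of 24421 symbols directly and 669 by an older symbol.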

Additional observations from a re-analysis of the deposited data

Results flagged for a closer look

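For 14 genes the age difference in CLPs differed from the mean of the 4 MPP fractions by the test of that difference in the fit over all genes (edgeR, adjusted p under 0.01). The contrast was chosen after earlier results of these data had shown CLPs apart from the MPPs, so it is no independent test. Values are the difference of log2 fold changes, CLP minus the MPP mean. Those higher in CLPs were Dnajb9 (1.52), Xbp1 (1.31), Edem2 (0.64), Hspa5 (0.52), Herpud1 (0.49), Dnajc3 (0.45), Derl1 (0.39), Sel1l (0.32) and Sec61a1 (0.29). Those lower in CLPs were Sdf2l1 (-0.62), Sec61b (-0.41), Calr (-0.40), Atf4 (-0.39) and Pdia3 (-0.26). Markers of plasmacytoid dendritic cells, basophils and neutrophils moved in the same CLP libraries. Proliferation genes were lower in sum in aged CLPs and higher in sum in aged MPPs. The part of these lists in these values was not tested.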

How the results depend on the processing

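The 2 libraries a group limit what can be called, and genes under about 10 CPM, such as Ddit3, rest on few counts. Where libraries of 2 groups are said not to overlap, the share of all genes so separated was not computed. For genes named because they were called in the same libraries, the separation is a description and adds no support to the call. DESeq2 size factors, the replicate block and all but 1 of the 18 counts of calls under DESeq2, no filter and the offsets stayed within 1.5 times. The exceptions were young HSC against young MPP1, with 4 calls in the fit used, 8 by DESeq2, 9 with offsets for GC content and length, 9 with the replicate block and offsets, and 8 from the libraries compared alone, and MPP2 with age, 4 without a filter. The libraries compared alone gave 0 calls by age in HSC (8 genes at an unadjusted p under 0.05), 13, 14, 4 and 5 in MPP1 to MPP4, 5 in GMP, 6 in MEP and 0 in CLP (17 genes at an unadjusted p under 0.05), where DESeq2 on all libraries gave 8 in HSC and 13 in CLP, and 2 for aged HSC against aged MPP1. Fits of the libraries compared have fewer degrees of freedom and estimate the spread from those libraries alone, not over all 32. Among the 16 groups, duplicates differed most in aged HSCs and aged CLPs (chi-square per degree of freedom 19.04 and 18.6). The cause of the lower or higher counts was not tested.

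Leaving out 1 library gave 2 to 4 calls by age in HSC, 4 to 5 in MPP1 and in MPP2, 5 to 6 in MPP3, 7 to 10 in MPP4, 9 to 13 in GMP, 5 to 8 in MEP and 4 to 10 in CLP, 21 to 24 for the interaction and 7 to 15 for CLP against the MPP mean. For the steps it gave 2 to 3 (HSC against MPP1), 32 (GMP), 23 to 25 (MEP) and 24 to 26 (CLP) in young mice, and 7 to 12, 30 to 32, 22 to 23 and 25 to 28 in aged mice. Signs turned only for genes that were not called, in fits without the library named: Hspa5 in HSC (-0.21 to 0.011, aged HSC replicate 2), Ddit3 in HSC (-0.038 to 0.28, aged HSC replicate 2), Atf4 in MPP1 (-0.021 to 0.18, aged MPP1 replicate 1), Ddit3 in MPP1 (-0.081 to 0.0026, aged MPP1 replicate 2), Ddit3 in MPP2 (-0.46 to 0.022, aged MPP2 replicate 1), Atf4 in MPP4 (-0.21 to 0.097, young MPP4 replicate 1) and Atf4 in MPP3 (-0.099 to 0.059, young MPP3 replicate 2 and aged MPP3 replicate 1). Atf4 in MPP3 also turned with offsets (0.0061), with the replicate block and offsets (0.0062) and from its own libraries (0.00022).

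Duplicates carry the same numbers, but same-numbered libraries did not deviate together (r -0.056 to 0.070 over the 8 fractions), so the numbers were not taken to pair them. With the replicate block the counts of calls stayed within 1.5 times, and of the 101 gene values tested Atf4 in CLP alone lost its call (-0.36, adjusted p 0.0102).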
